A study of Mus musculus with 6 samples.

Results

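The adhesion molecules by which endothelial cells hold leukocytes are described here from 6 arrays of 1G11 cells, a mouse microvascular endothelial cell line. They are 10 genes: *Vcam1*, *Icam1*, *Icam2*, *Sele*, *Selp*, *Madcam1*, *F11r*, *Jam2*, *Jam3* and *Alcam*. All spots whose design sequence or description names one of these genes were taken, which gave 23 of the 59305 spots that are not controls, and 14 of 55681 probes. One *Jam2* probe was designed on a cDNA clone whose description gives the product but no symbol, and it is called the *Jam2* clone probe. Of the 23 spots, 21 lie outside the middle of the array, a central block of rows and columns where intensities depended on the place of the spot. The 2 spots inside it, 1 of *Madcam1* and 1 of *Selp*, are reported apart.

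The study compared 1G11-mock cells with 1G11-SOD3 cells, which overexpress SOD3, the extracellular superoxide dismutase. The labels give the strain as C57BL/6NCrLBR for both lines. Before RNA was taken, both spent 6 h in conditioned medium from N202.1A, a mouse mammary cancer line, so no group shows either line without that medium. There were 3 arrays per line, each from a separate experiment by the study, all on 1 slide, and the mock arrays lay in one slide row and the SOD3 arrays in the other, so that line and slide row cannot be told apart. The study calls the lines transfectants and describes their making elsewhere, and whether each is 1 clone is not given in the sources used here.

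Leukocytes leave the blood in steps. The selectins (*Sele*, *Selp*) slow them by binding glycans, the immunoglobulin-type ligands VCAM-1, ICAM-1, ICAM-2 and MAdCAM-1 bind their integrins and stop them, and the junctional adhesion molecules (*F11r*, *Jam2*, *Jam3*) lie at the contacts between endothelial cells that leukocytes cross. In many endothelial cells VCAM-1, ICAM-1 and E-selectin are induced by inflammatory cytokines through NF-κB, whereas ICAM-2 is present without them.

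The probes are 60 bases long, and the sequences below are shown for 3 of the genes that differed between the lines, since a reader can see from them which part of the message was read. They are written as the array files give them, in lower case throughout. From general knowledge of the proteins, the *Vcam1* stretch codes for an immunoglobulin-type domain and the *Icam1* stretch mostly for the part inside the cell. The *Jam2* stretch codes for the membrane-spanning part and the start of the tail. These assignments were not checked against protein sequences here.
Vcam1 probe 2: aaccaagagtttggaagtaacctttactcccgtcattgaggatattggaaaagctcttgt
Icam1 probe: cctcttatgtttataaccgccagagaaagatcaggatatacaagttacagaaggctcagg
Jam2 probe 1: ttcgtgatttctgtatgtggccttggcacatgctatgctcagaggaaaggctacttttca

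The files place these probes at chr3:115828953-115829012 (minus strand), chr9:20832290-20832349 (plus strand) and chr16:84816558-84816617 (plus strand). The other *Vcam1* probe is at chr3:115813216-115813275, the second *Jam2* probe at chr16:84824952-84825011, the *Jam3* probe at chr9:26905298-26905357 and the *F11r* probe at chr1:173393848-173393907. The build is not named in the files, and the positions were not compared with an annotation.

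Promoters of 6 of the 10 genes were at hand from RefSeq (GRCm38.p6), namely *Icam1*, *Sele*, *Selp*, *Madcam1*, *F11r* and *Alcam*. In the 250 bases before the annotated start, a form of the NF-κB site, GGNNTTTCC, was sought on both strands. It was found in 4.93% of 32851 such windows, and in *Icam1*, *Madcam1* and *Selp* among the 6. The windows of *Icam1* (chr9:21015690-21015939, plus strand), a gene that differed between the lines, and of *Madcam1* (chr10:79664309-79664558, plus strand), a dim one, are shown with the matches in capitals.
Icam1 promoter: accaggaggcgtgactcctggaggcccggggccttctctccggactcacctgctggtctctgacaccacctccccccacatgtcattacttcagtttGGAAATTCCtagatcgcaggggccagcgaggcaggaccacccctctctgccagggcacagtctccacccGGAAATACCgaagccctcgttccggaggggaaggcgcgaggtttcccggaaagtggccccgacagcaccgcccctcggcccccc
Madcam1 promoter: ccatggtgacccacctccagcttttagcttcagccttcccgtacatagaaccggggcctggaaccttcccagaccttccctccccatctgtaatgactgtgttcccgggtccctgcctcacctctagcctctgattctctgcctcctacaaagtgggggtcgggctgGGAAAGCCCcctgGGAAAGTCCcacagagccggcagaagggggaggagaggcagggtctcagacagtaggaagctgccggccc

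The 2 matches of *Icam1* begin 153 and 84 bases before the start and those of *Madcam1* 83 and 70 bases before it, all read on the opposite strand. *Selp* held 1, which begins 14 bases before the start. None was found in the windows of *Sele*, *F11r* and *Alcam*. A match is a description of these letters, and no binding was measured.

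Values are log2 intensities after normexp background correction and quantile normalization. Between 34.2% and 43.8% of the spots per array were well above background by the flags of the files, none of them saturated. *Sod3* itself rose from 12.04 ± 1.95 to 16.31 ± 0.06 (SD, n = 3 each), a log2 difference of 4.27 (adjusted p = 0.00786, limma). Its spot is in the middle of the array, and the difference was 2.67 with an adjustment for the place of the spot, which is used throughout as the second value. Of 12 endothelial marker genes, *Kdr*, *Eng*, *Vwf*, *Esam* and *Flt1* were above background on every array of at least 1 line, and *Pecam1* was on 2 arrays of each line. *Cdh5*, *Tek*, *Tie1*, *Emcn* and *Erg* were above background on no array, so that several genes that define endothelium were not measured above background in these cells. *Cdh5* was read by 1 probe alone. The study regularly stained 1G11 cells for VE-cadherin, the protein of *Cdh5*, to verify that they are endothelial. Of 10 leukocyte markers 7, *Ptprc* among them, were above background on no array, whereas *Cd3e* and *Csf1r* were on all 6 and *Itgb2* on 4. In a bulk RNA sample, fewer cells of a type and less RNA per cell cannot be told apart.

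Which genes were expressed comes first. A probe was counted as above background on an array when at least 0.5 of its copies were. By this rule 8 probes of 6 genes were above background on every array of at least 1 line: both *Vcam1* probes, *Icam1*, *F11r* and *Jam2* probes 1 and 2 on all 6 arrays, *Jam3* on 3 SOD3 and 2 mock arrays, and *Icam2* on 3 SOD3 and 0 mock arrays. The 3 probes of *Sele* and *Madcam1* were above background on no array. The remaining *Selp*, *Jam2* clone and *Alcam* probes were above background on 1 of the 6 arrays each. The endothelial selectins and the mucosal ligand were thus at or near background in both lines.

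Of the 14 probes, 5 were lower in 1G11-SOD3 cells and 1 was higher, a call needing a change above 2-fold and an adjusted p under 0.05 (limma, Benjamini-Hochberg over all probes). Over all 55681 probes, 2.93% were called, 1.06% lower and 1.87% higher. Among the 19796 probes above background on every array of a line, 8.05% were called, 2.86% lower and 5.19% higher. The arrays of the lines did not overlap for 7 of the 14 probes, against 20.6% of all probes and 33.5% of those above background on every array of a line. The 14 include dim probes, which the 33.5% leaves out. Among the 7 is the *Madcam1* probe in the middle of the array, which was above background on no array and is reported apart below. The others of the 7 were above background on every array of at least 1 line. The median log2 difference of the 14 probes was -0.29 and that of all probes -0.03. The genes lower in 1G11-SOD3 cells were *Vcam1*, *Icam1* and *Jam2*, and the gene higher in them was *Jam3*. With 3 arrays per line, the smallest p of an exact permutation test is 0.1 (2-sided).

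**Figure D1:**
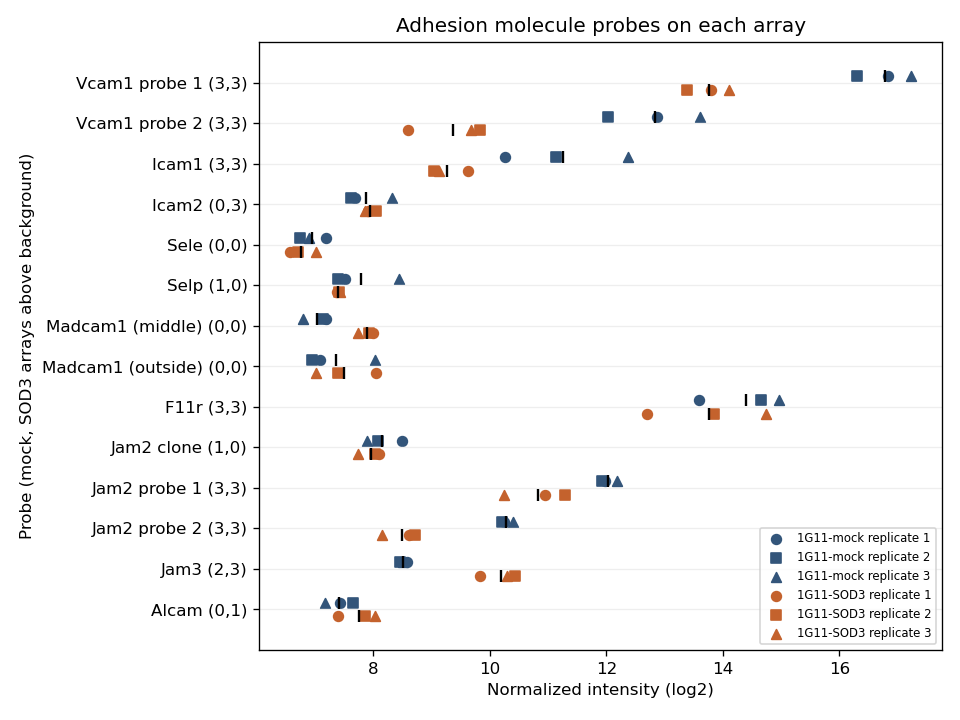
Normalized log2 intensity (x axis) of the 14 probes on each of the 6 arrays, mock in blue and SOD3 in orange, with a symbol for each replicate number and a black bar at the mean of 3. In brackets are the mock and SOD3 arrays on which the probe was above background. The *Vcam1*, *Icam1* and *Jam2* probes 1 and 2 show all SOD3 arrays below all mock arrays, *Jam3* the reverse, and *F11r* an overlap.

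*Vcam1* encodes the endothelial ligand of the integrin α4β1 of lymphocytes and monocytes, and it showed the greatest differences among the 10 genes. The first *Vcam1* probe read 16.83, 16.31 and 17.23 on the mock arrays and 13.80, 13.38 and 14.11 on the SOD3 arrays (log2, replicates 1 to 3). The uncorrected spot intensities were 104000, 62400 and 123000 against 17000, 12200 and 24000, with local backgrounds of 73.5 to 106. The lowest mock array was more than 2 log2 units above the highest SOD3 array. The difference was -3.02 (SE 0.29, 95% interval -3.66 to -2.39), or 8.14-fold (adjusted p = 0.000385, limma). The *Vcam1* transcript was thus lower in 1G11-SOD3 cells but remained far above background in them.

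The second *Vcam1* probe, whose sequence is given above, read 12.86, 12.02 and 13.61 on the mock arrays and 8.59, 9.84 and 9.68 on the SOD3 arrays. Again no SOD3 array reached the mock arrays. Its difference was -3.46 (SE 0.42, adjusted p = 0.00141, limma). Its 95% interval, -4.38 to -2.55, overlaps that of the first probe. With the place of the spot adjusted for, the *Vcam1* differences were -3.08 (adjusted p = 0.000467) and -3.32 (adjusted p = 0.00172) by limma. Without any 1 of the 6 arrays they ran from -3.27 to -2.80 and from -3.87 to -3.07, and both probes stayed past the threshold each time.

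*Icam1* encodes the ligand of the β2 integrins LFA-1 and Mac-1, which stops leukocytes and guides them across. Its probe read 10.26, 11.14 and 12.38 on the mock arrays and 9.63, 9.03 and 9.13 on the SOD3 arrays. The mock arrays were spread over more than 2 log2 units, the SOD3 arrays over less than 1, and the lines did not overlap. The *Icam1* difference was -1.99 (SE 0.44, 95% interval -2.95 to -1.04), or 3.98-fold (adjusted p = 0.0322, limma). This call was lost with the place of the spot adjusted for (-1.71, adjusted p = 0.0588, or 0.0368 with the replicate number as a block), without background correction (-1.78, adjusted p = 0.0963), and in 5 of the 6 fits that left out 1 array (adjusted p from 0.0529 to 0.132), the exception being 1G11-mock replicate 1. The direction was the same in each of these fits. Without 1G11-mock replicate 3, the brightest, the *Icam1* difference was -1.43. The study names ICAM-1 among the genes repressed on its arrays. In a further mRNA measurement, however, it found similar ICAM-1 levels in both lines, unstimulated or given TNF-α. Those conditions differ from the N202.1A medium used for the arrays.

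*Icam2* encodes a second ligand of LFA-1. Its probe read 7.68, 7.61 and 8.33 on the mock arrays and 7.91, 8.05 and 7.86 on the SOD3 arrays, and was above background on 3 SOD3 arrays and on 0 mock arrays. The readings overlapped, with a difference of 0.07 (95% interval -0.48 to 0.62, adjusted p = 0.935, limma). No fold is given for *Icam2*, because the mock readings limit its level there only from above and the bound lies under 1. *Alcam* encodes a ligand of CD6 on lymphocytes. It read between 7.17 and 7.64 on the mock arrays and between 7.39 and 8.03 on the SOD3 arrays, and was above background on 1 SOD3 array. Its difference was 0.34 (95% interval -0.20 to 0.89, adjusted p = 0.593, limma), which was not past the threshold.

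*Jam2* encodes JAM-B, a protein of endothelial junctions that binds JAM-C and the integrin α4β1. Probe 1 read 11.99, 11.93 and 12.18 on the mock arrays and 10.95, 11.29 and 10.24 on the SOD3 arrays. Probe 2 read 10.24, 10.21 and 10.40 on the mock arrays and 8.61, 8.71 and 8.15 on the SOD3 arrays. In both, the mock arrays lay close together and above every SOD3 array, and SOD3 replicate 3 was the lowest. The differences were -1.21 (SE 0.28, 95% interval -1.82 to -0.59, adjusted p = 0.0429) for probe 1 and -1.79 (SE 0.23, 95% interval -2.30 to -1.28, adjusted p = 0.00234) for probe 2 by limma, or 2.31-fold and 3.46-fold.

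The 2 *Jam2* probes were not equally firm. Probe 2 was called under every alternative tried, with adjusted p at most 0.0208, and its difference was -1.40 (adjusted p = 0.0164, limma) with the place of the spot adjusted for. Probe 1 had an adjusted p of 0.0817 with that adjustment (-1.18), and it was called with only 1 of the 6 arrays left out, 1G11-SOD3 replicate 2. Without 1G11-SOD3 replicate 3 its difference was -0.92. The *Jam2* clone probe read 8.49, 8.09 and 7.88 on the mock arrays and 8.10, 8.02 and 7.74 on the SOD3 arrays, and was above background on 1 mock array alone. The lines overlapped (-0.20, 95% interval -0.73 to 0.33, adjusted p = 0.771, limma), and no fold is given for this dim probe.

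*Jam3* encodes JAM-C, the partner of JAM-B, which also binds Mac-1 on leukocytes. Its probe read 8.57, 8.47 and 8.50 on the mock arrays and 9.83, 10.43 and 10.30 on the SOD3 arrays. All SOD3 arrays lay more than 1 log2 unit above all mock arrays. The uncorrected spot intensities of *Jam3* were 495, 470 and 519 against 1090, 1580 and 2020. The difference was 1.67 (SE 0.23, 95% interval 1.16 to 2.19), or 3.19-fold (adjusted p = 0.00329, limma), and 1.98 (adjusted p = 0.00244) with the place of the spot adjusted for. It was called under every alternative tried, with 1.55 to 1.85 when 1 array was left out. The mock readings of *Jam3* were near background, and the size of its difference ran from 1.36 without background correction to 2.76 with the processed signal of the scanner software.

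So the messages of the 2 partner proteins of one junctional pair differed in opposite directions between the lines. *F11r* encodes JAM-A, a junctional ligand of LFA-1, and was above background on all arrays. It read 13.59, 14.65 and 14.97 on the mock arrays and 12.69, 13.85 and 14.73 on the SOD3 arrays. The lines overlapped, and in both the replicates ran in the same order. The *F11r* difference was -0.65 (SE 0.48, 95% interval -1.70 to 0.40, adjusted p = 0.599, limma), and -0.34 (adjusted p = 0.631) with the place of the spot adjusted for. With the replicate number as a block, the SE of *F11r* was 0.24 and the adjusted p 0.187, which was not past the threshold either.

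**Figure D2:**
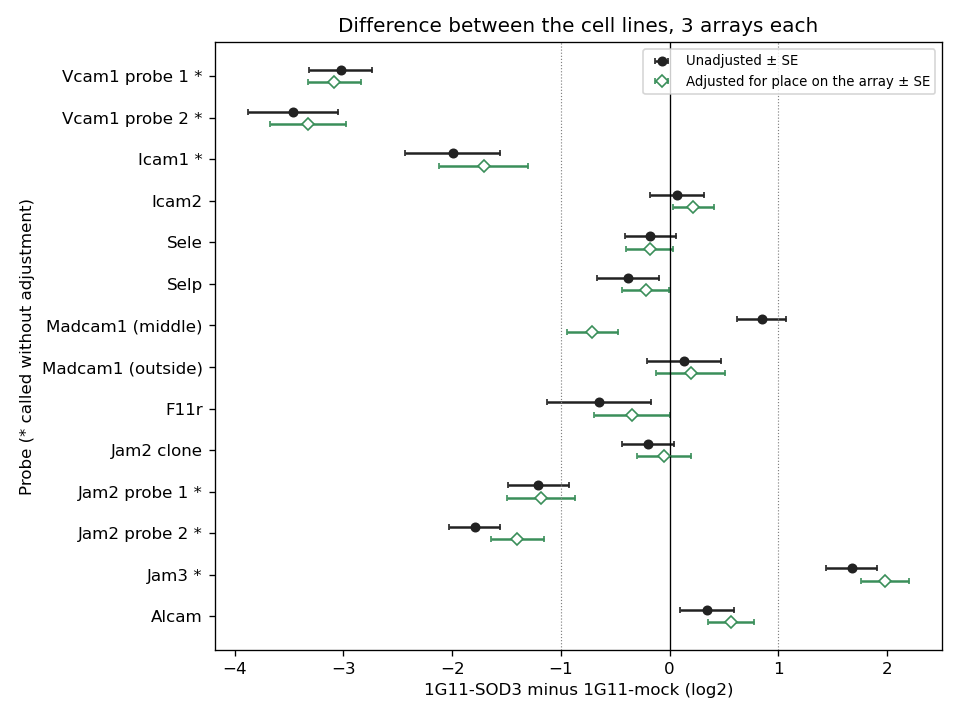
Difference between 1G11-SOD3 and 1G11-mock cells (log2, x axis) for each of the 14 probes, without adjustment (filled circles) and with adjustment for the place of the spot (open diamonds), with bars of 1 SE from limma, n = 3 arrays per line. Dotted lines mark 2-fold and asterisks the 6 called probes. Both estimates lie on the same side of 0 except for the *Madcam1* probe in the middle of the array, which went from 0.85 to -0.71.

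The *Madcam1* probe in the middle (row 169, column 83) read 7.19, 7.13 and 6.78 on the mock arrays and 7.99, 7.92 and 7.74 on the SOD3 arrays, below the background limit on all 6. The lines did not overlap, with SOD3 above mock, and the difference was 0.85 (adjusted p = 0.0739, limma). At this spot the fitted surface of intensity over the array was 2.66 log2 units higher on the SOD3 arrays. Adjusted for it, the *Madcam1* difference was -0.71 (adjusted p = 0.143). The other *Madcam1* probe, outside the middle, read between 6.95 and 8.03 on the mock arrays and between 7.02 and 8.04 on the SOD3 arrays, a difference of 0.13 (95% interval -0.61 to 0.88). *Madcam1*, which encodes the ligand of the gut-homing integrin α4β7, was thus dim on both probes and gave no fold.

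*Sele* encodes E-selectin, which appears on endothelium exposed to cytokines. Its probe read 7.18, 6.74 and 6.90 on the mock arrays and 6.58, 6.70 and 7.01 on the SOD3 arrays. None of these was above background, so that a difference in *Sele* was not detectable here (-0.18, adjusted p = 0.790, limma).

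*Selp* encodes P-selectin, which endothelial cells store and bring to the surface on activation. Its probe was printed 10 times, and the copies show how one message reads at different places. Their medians were 7.56, 7.42 and 8.51 on the mock arrays and 7.45, 7.37 and 7.46 on the SOD3 arrays. On 1G11-mock replicate 3, 6 of the 10 copies were above background, on 1G11-SOD3 replicate 3 there was 1, and on the other 4 arrays there were 0. Only 1 array thus stood apart, and the remaining mock arrays read like the SOD3 arrays.

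Averaged over copies, *Selp* differed by -0.39 (95% interval -1.01 to 0.24, adjusted p = 0.601, limma), and no fold is given, since 1G11-mock replicate 3 alone was above background. Of the copies, the 9 outside the middle differed by -0.73 to -0.23, and the 1 in the middle by 0.16. The copy in the middle went the other way from all others.

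**Figure D3:**
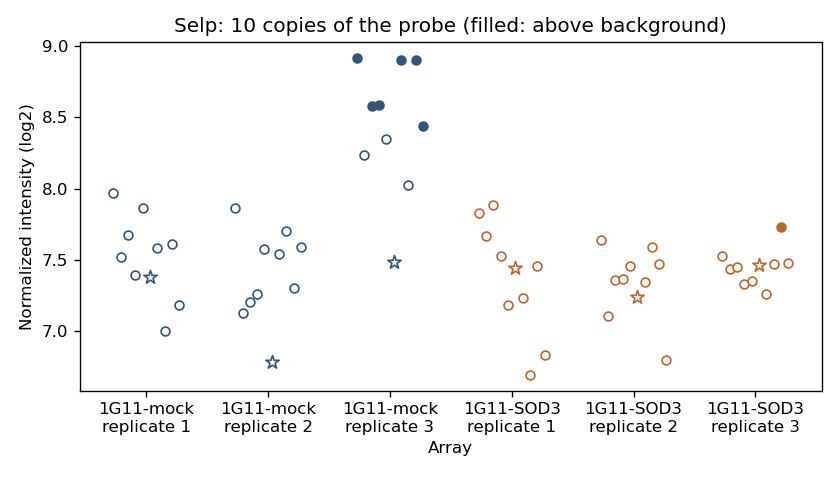
Normalized log2 intensity (y axis) of the 10 copies of the *Selp* probe on each array (x axis), filled where the spot was above background, with a star for the copy in the middle of the array. The copies of 1G11-mock replicate 3 are centred at 8.51 and those of the other 5 arrays between 7.37 and 7.56.

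Leaving out arrays 1 at a time separated the called probes into 2 sets. The *Vcam1* probes, *Jam2* probe 2 and *Jam3* were called in all 6 such fits. *Icam1* and *Jam2* probe 1 were each called in 1 of the 6. With the place of the spot adjusted for, 3 of the 14 probes were called lower (1.56% of all probes) and 1 higher (0.841% of all probes), which were the 2 of *Vcam1*, *Jam2* probe 2 and *Jam3*.

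**Figure D4:**
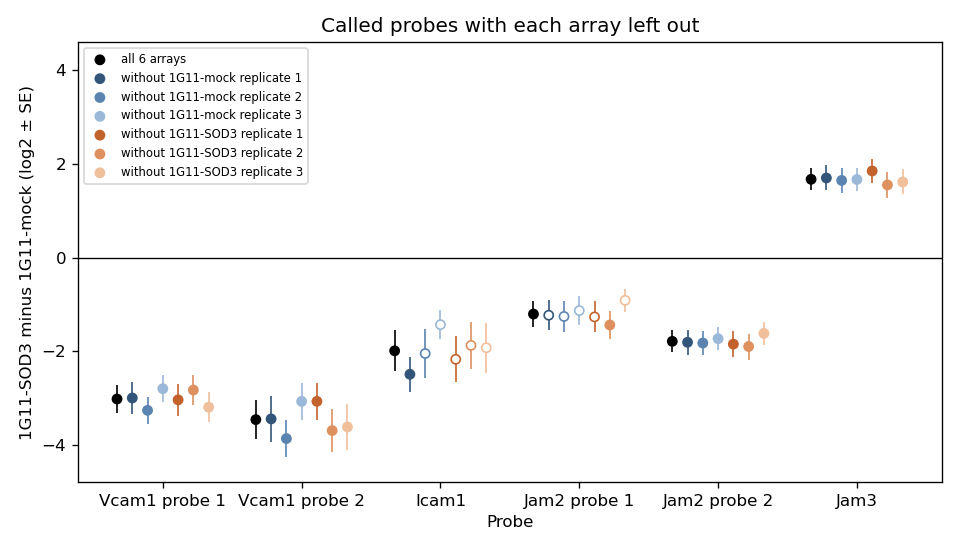
Difference between the lines (log2, y axis, with bars of 1 SE) for the 6 called probes with all 6 arrays (black) and with each array left out in turn (colours), filled where the probe was called. *Vcam1*, *Jam2* probe 2 and *Jam3* are filled throughout, *Icam1* ranges from -2.50 to -1.43, and *Jam2* probe 1 from -1.44 to -0.92.

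Other genes of the adhesion cascade were read by the brightest probe of each, for 60 genes in 6 lists, of which 59 had a probe and 46 were above background on every array of at least 1 line. In all, 2 were lower and 1 was higher in 1G11-SOD3 cells. Over the 22190 named genes, 1.73% were called lower and 2.95% higher. The median difference of the 59 genes was -0.27.

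The called genes lower in 1G11-SOD3 cells were both among the 11 cytokine receptors and NF-κB components, and each is a known inhibitor of that pathway as well as a target of it. *Tnfaip3*, which encodes A20, fell from 11.74 to 9.45, a difference of -2.29 (SE 0.30, adjusted p = 0.00230, limma). *Nfkbia*, which encodes IκBα, fell from 15.84 to 14.55, by -1.29 (SE 0.25, adjusted p = 0.0173). The median of this list was -0.73, and the other 9 genes were not called. They ran from *Relb* at -1.12 (adjusted p = 0.136, limma) to *Il1r1* at 0.51, with *Rela* and *Nfkb1* at -0.52 and -0.21. *Irf1*, at -0.94 (adjusted p = 0.0439, limma), missed the call by its size alone, and was -0.79 (adjusted p = 0.0956) with the place of the spot adjusted for. With 1 array left out, *Tnfaip3* was called in all 6 fits, and *Nfkbia* in 2, those without 1G11-mock replicate 1 and 1G11-SOD3 replicate 3. *Nfkbia* was also not called with the processed signal. In a separate measurement with TNF-α rather than the N202.1A medium, the study saw no difference in IκBα mRNA between the lines.

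Among the 10 genes for selectin ligands, *Cd34*, a sialomucin that carries L-selectin ligands in some vessels, rose from 15.47 to 16.58, a difference of 1.11 (SE 0.23, adjusted p = 0.0269, limma). *Cd34* was called in 1 of the 6 fits that left out an array, that without 1G11-mock replicate 2, and was not called with an offset of 16 or with the processed signal. None of the 14 membrane partners measured, the 12 cytoplasmic linkers of ICAM-1 and VCAM-1, the 4 sheddases and the 8 leukocyte counter-receptors was called. *Esam*, a junctional protein read in the middle of the array, differed by 1.22 (adjusted p = 0.188, limma). It was called with the replicate number as a block (adjusted p = 0.0464), with scaling to the 75th percentile (adjusted p = 0.0388) and without 1G11-mock replicate 1 (1.69, adjusted p = 0.0397). With the place of the spot adjusted for, *Esam* differed by -0.38. *Arhgef26*, a dim gene whose protein binds the tail of ICAM-1, differed by -0.08 and was called lower, at -1.26 (adjusted p = 0.0220), with that adjustment. It lies in the middle of the array, and the adjustment raised the median SD among copies of dim probes from 0.271 to 0.376. *Arhgef26* was called lower with the processed signal of the scanner software as well (-2.07, adjusted p = 0.0208, limma). With that signal 9918 of all probes were called lower, and the median difference of all probes was -0.52.

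**Figure D5:**
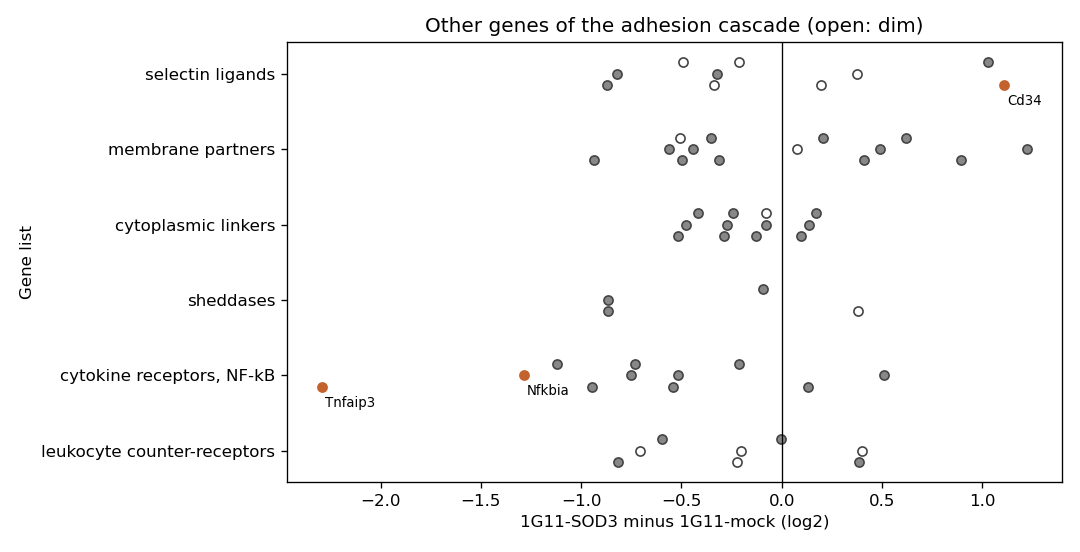
Difference between the lines (log2, x axis) of each gene in the 6 lists of adhesion cascade genes (y axis), 1 point per gene, open where neither line had the probe above background on all 3 arrays, and orange and named where called. *Tnfaip3* and *Nfkbia* at -2.29 and -1.29 and *Cd34* at 1.11 are the called genes, and *Esam*, at 1.22, was not called.

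The probes whose readings were most like those of the called members were found by the root mean square difference of centred log2 values over the 6 arrays, among 12211 probes. The genes nearest to the first *Vcam1* probe were *Ccl2* (0.27), *C1s1* (0.34) and *Ccl7* (0.35), and *Ccl7* (0.42) and *Ccl2* (0.46) were also the nearest to the second, followed by *Gm3776* (0.49). *Ccl2* and *Ccl7* encode chemokines that attract monocytes, and they differed between the lines by -3.48 and -2.78. The measure takes in the gap between the lines, so genes picked as near a called probe differ between the lines much as that probe does. For *Icam1* the nearest were *Nr1d1* (0.30), *Rac3* (0.31) and *C3* (0.34).

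For *Jam2* probe 2 the nearest were *Ptprj* (0.11), *Vwf* (0.12) and *Slc43a2* (0.14), and for probe 1 *Creb3* (0.10), *Zbtb43* (0.14) and *Slco2a1* (0.15). *Vwf*, the von Willebrand factor made by endothelium, fell by 1.65 (adjusted p = 0.00342, limma) and was the 1 called gene of the 12 endothelial markers. For *Jam3* they were *Lrrc59* (0.12), which is read in the middle, *Fbxl16* (0.14) and *Ipo5* (0.20).

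Markers of other cells moved with the lines as well. Of 10 fibroblast and mural genes, 5 were called higher in 1G11-SOD3 cells: *Acta2* by 3.01, *Pdgfrb* by 2.39, *Lum* by 1.89, *Col1a2* by 1.27, and *Col1a1*, which went from 11.32 to 14.42. For comparison, 2.95% of the 22190 named genes were called higher. With the place of the spot adjusted for, 4 of the 5 were called, and *Lum* was not. Their list summed to between 14.44 and 15.15 on the mock arrays and between 15.38 and 17.42 on the SOD3 arrays (log2 of the summed intensity), which do not overlap. *Dcn*, which was not called (0.29, adjusted p = 0.905), read 17.05 on 1G11-SOD3 replicate 3 and 13.51 and 13.59 on the other SOD3 arrays, against 14.04 to 14.78 on the mock arrays. Of these 10 genes *Rgs5* was above background on no array. The 10 leukocyte markers summed to 11.76 to 12.07 and 11.75 to 11.87. The 10 epithelial markers summed to 16.06 to 16.78 and 15.81 to 16.48. Most of this came from *Krt19*, which read 16.02 to 16.76 on the mock arrays and 15.40 to 16.35 on the SOD3 arrays and was not called. Of the epithelial markers 1, *Krt14* in the middle of the array, was called higher. Its difference was 4.82, and with the place of the spot adjusted for it was 2.33 and still called (adjusted p = 0.000759, limma). The endothelial list summed to 14.45 to 14.88 on the mock arrays and 13.91 to 14.21 on the SOD3 arrays. These sums rest mainly on *Eng* (means of 13.81 and 12.76) and *Kdr* (12.89 and 12.39), neither of which was called. The median difference of the endothelial list was -0.01, and -0.51 over its genes above background on every array of a line. The part of these markers in the differences of *Jam3*, *Jam2*, *Vcam1* and *Icam1* was not tested.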

How the data were processed

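The authors deposited the Feature Extraction 10.7.3.1 output of each single-color Agilent array (spot and background intensity, not normalized) and a table of normalized log2 values (normexp, quantile). From the mean spot intensity and the local background median, normexp correction (offset of 50), log2 and quantile normalization were computed with limma 3.58.1 in R 4.3.3 without control spots, and outlier spots were left out. Copies of a probe were averaged. The lines were compared with limma and Benjamini-Hochberg adjustment over 55681 probes. Values of the 3 arrays per line limit the precision. For the place of a spot, a surface over rows and columns was fitted per array (mgcv 1.9.3), with probes printed many times held out. It lowered the median SD among copies of 192 bright held-out probes from 0.541 to 0.172 and raised that of 207 dim ones from 0.271 to 0.376. Same-numbered arrays of the 2 lines deviated together (correlations of 0.165, 0.103 and 0.157 over 16279 probes, and of 0.0741, 0.140 and 0.244 with the adjustment for place, where the first lies below the 0.174 of mock replicate 2 with SOD3 replicate 1), and the replicate number as a block was an alternative, as were those given under the dependence on the processing. Genes were named through the design accession or, where that gave no name, through the description, as for the *Jam2* clone probe. All members were described by every probe, and other listed genes were named where called or where the adjustment for place changed the call. For each called member probe the 3 genes most alike were named. Markers are named where they define a cell type or moved. The members, lists and tests were chosen with earlier results of these data known, and the replicate block with the adjustment for place was added after seeing the data. The fit and the surface were also run on simulated arrays with independent noise, where only bright probes were changed. That run does not test changes in dim probes or deviations that replicates share. Figures were drawn with matplotlib 3.10.9 in Python 3.11.15.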

Additional observations from a re-analysis of the deposited data

How the results depend on the processing

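Of the 14 probes of the adhesion genes, 5 were called lower, 3 were with no background correction, 3 with the adjustment for place (4 with the replicate block added to it, where *Icam1* was called), and 3 to 4 with 1 array left out. The count called higher was 1, and 2 with the processed signal (75th percentile scaling), where *Alcam* was added and, among the 5 lower, *Sele* stood in for *Jam2* probe 1, both added genes being dim. It was 1 whichever array was left out.

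*Icam1* was not called with no background correction (-1.78) or with the adjustment for place (-1.71), and was -2.50 to -1.43 with 1 array left out. *Jam2* probe 1 was not called at -1.14 with no background correction, -1.23 with an offset of 16, -1.15 with median pixel intensity, -1.28 with the processed signal, -1.06 with scaling to the 75th percentile, -1.10 with cyclic loess, -1.21 with a variance trend, -1.15 with the deposited table, -1.18 with the adjustment for place and -1.18 with the replicate block added to it (adjusted p = 0.0613), and was -1.44 to -0.92 with 1 array left out. *Icam2*, at 0.07, turned to -0.10 with the processed signal and to -0.27 with scaling to the 75th percentile, and was -0.061 to 0.30 with 1 array left out. The *Vcam1* probes, *Jam2* probe 2 and *Jam3* kept their direction and call under all 20 alternatives.

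Over all probes 1629 were called (589 lower, 1040 higher), 1056 with no background correction, 11118 with the processed signal (9918 lower, 1200 higher), 2598 with scaling to the 75th percentile, 842 without the middle of the array (543 lower, 299 higher) and 775 to 1794 with 1 array left out. The adjustment for place gave 869 lower and 468 higher. The median difference of all probes was -0.52 with the processed signal and -0.33 with scaling to the 75th percentile, so that levels of dim probes in these are relative to that shift. Cascade genes called lower were 2, 7 with the processed signal (*Tnfaip3* but not *Nfkbia* among them), 3 with scaling to the 75th percentile (*Itgal* added), 3 with the adjustment for place (*Arhgef26* added), and 1 to 2 with 1 array left out. Cascade genes called higher were 1, 0 with an offset of 16, 0 with the processed signal, 2 with scaling to the 75th percentile and 2 with the replicate block, *Esam* being added in both, and 0 to 1 with 1 array left out. The 1 was *Esam* without 1G11-mock replicate 1 and *Cd34* without 1G11-mock replicate 2. Apart from *Esam*, the replicate block changed no call among the 14 probes and the cascade genes. It was not tabulated for the markers and most alike genes. Signal over background limits what can be said of *Sele*, *Selp*, *Madcam1*, *Icam2* and *Alcam*.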
